A study of Mus musculus with 6 samples.

Results

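The genes described here are 10 members of the zinc handling machinery, read in the prostate lobes of a mouse with a prostate MYC transgene and of a wild-type littermate. They were chosen by symbol from a fixed list, with no measured value in the rule: the metallothioneins MT1 and MT2, the 5 importers SLC39A1, SLC39A4, SLC39A7, SLC39A8 and SLC39A14, and the 3 exporters or vesicle loaders SLC30A1, SLC30A2 and SLC30A4. All 10 were found among the 24908 genes measured, and all 10 passed the level filter (an average of 1 FPKM or more across libraries), as did 12361 genes in all, which were then compared. FPKM is the number of fragments scaled to transcript length and to the mapped reads of the library, so it is a level per length and can be set side by side between genes.

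Bulk polyA RNA-seq was made from the anterior (AP), dorsolateral (DLP) and ventral (VP) prostate of male FVB mice aged 12 weeks, after each lobe had been dissociated to a cell suspension. The Hi-MYC animal (MYC) was heterozygous for a human c-MYC transgene driven by an androgen-responsive probasin promoter in prostate epithelium, and the WT animal lacked the transgene. Both were kept on the same purified diet. Each of the 6 groups, WT AP, MYC AP, WT DLP, MYC DLP, WT VP and MYC VP, held 1 library, so no difference between MYC and WT has a replicate check or a p-value. The comparisons ask how zinc genes differ between MYC and WT within a lobe, and between the lobes of 1 genotype.

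Zinc enters the cytosol through transporters of the SLC39 (ZIP) family, from outside the cell or from its organelles, and leaves it through those of the SLC30 (ZnT) family, which carry it out of the cell or into vesicles. Metallothioneins are small cytosolic proteins whose cysteines hold zinc and copper, and their genes are switched on by metal through the sensor MTF1, and also by glucocorticoids and inflammatory cytokines. The prostate is known for accumulating zinc in its secretory epithelium and secreting it into prostatic fluid. In rodents the lateral part of the dorsolateral lobe is the classic zinc-rich lobe. Loss of zinc is a long-known feature of malignant prostate tissue in humans.

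Depth was estimated at 25.5 to 50.2 M mapped reads per library from the spacing of low values, with 34.4% to 48.3% of those values within 3% of a whole read. Intervals given below are exact 95% intervals of a ratio of the estimated reads and cover counting error only, not differences between animals. The row of the targeted gene, listed as MYC, was at 226 FPKM in VP of WT and 1696 in VP of MYC, at 201 and 586 in DLP, and at 230.0 and 231 in AP; whether that row counts the human transgene is not given in the sources used here. In MYC AP, 7 seminal vesicle genes, among them SVS4 and SVS5, summed to 522 FPKM against 0.112 in WT AP and 9.17 in MYC DLP, so that this library stood apart by genes of a neighbouring gland. The luminal markers KRT8, KRT18 and HOXB13 were present in every library. In bulk tissue, fewer cells of a type and less RNA per cell cannot be told apart.

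The coding sequences of both metallothioneins are shown because they are the most abundant members and carry their function in plain sight: the codons for cysteine, the residue that holds metal, are in capitals and the other codons in lower case. They are from the GENCODE M1 reference transcripts of the mouse genome, 5′ to 3′, start to stop codon.
MT1: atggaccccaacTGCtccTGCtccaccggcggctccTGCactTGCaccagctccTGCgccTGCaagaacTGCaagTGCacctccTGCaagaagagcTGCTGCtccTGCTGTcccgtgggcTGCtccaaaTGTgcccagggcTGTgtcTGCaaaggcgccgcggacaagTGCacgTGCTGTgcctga
MT2: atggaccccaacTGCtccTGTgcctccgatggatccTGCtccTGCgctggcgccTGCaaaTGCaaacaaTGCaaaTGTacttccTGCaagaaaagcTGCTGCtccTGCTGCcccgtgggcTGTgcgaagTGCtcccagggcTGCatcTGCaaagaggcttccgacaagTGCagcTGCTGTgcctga
Each runs over 186 bases with 61 codons before the stop, of which 20, or 32.8%, encode cysteine. All 20 cysteine codons stand at the same places in both genes, and 148 bases, or 79.6%, are identical. The longest stretch the reference transcripts share is 20 bases, shorter than the 75-base reads, so the 2 genes can be counted apart. They are neighbours on chromosome 8 (GRCm38.p6): Mt2 at chr8:94172618-94173567 and Mt1 at chr8:94178883-94180327, with 5315 bases between them.

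The metallothioneins were the most abundant members in every library and fell into an order by lobe, highest in AP and lowest in VP. MT1 was at 4662 FPKM in WT and 2936 in MYC AP, at 2637 in WT and 1767 in MYC DLP, and at 1508 in WT and 1443 in MYC VP. MT2 followed at 3656, 2231, 2210, 1776, 1031 and 908 FPKM in the same libraries. For each gene every AP library was above or level with every DLP library, and every DLP library was above both VP libraries. The only pair of neighbours in these orders within counting error was MT2 in MYC AP and WT DLP, with a ratio of 1.01 (interval 0.995 to 1.02).

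In WT AP, MT1 held rank 2 and MT2 rank 4 among all genes by FPKM, and in MYC VP they held ranks 63 and 90. Together they made up 2.22% of all summed FPKM in AP of WT and 1.36% in AP of MYC, 1.12% and 0.789% in DLP, and 0.619% and 0.487% in VP. The ratio of MT1 to MT2 was 1.28 in WT and 1.32 in MYC AP, 1.19 in WT and 0.995 in MYC DLP, and 1.46 in WT and 1.59 in MYC VP. MYC DLP was thus the only library in which MT1 was not above MT2.

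**Figure D1:**
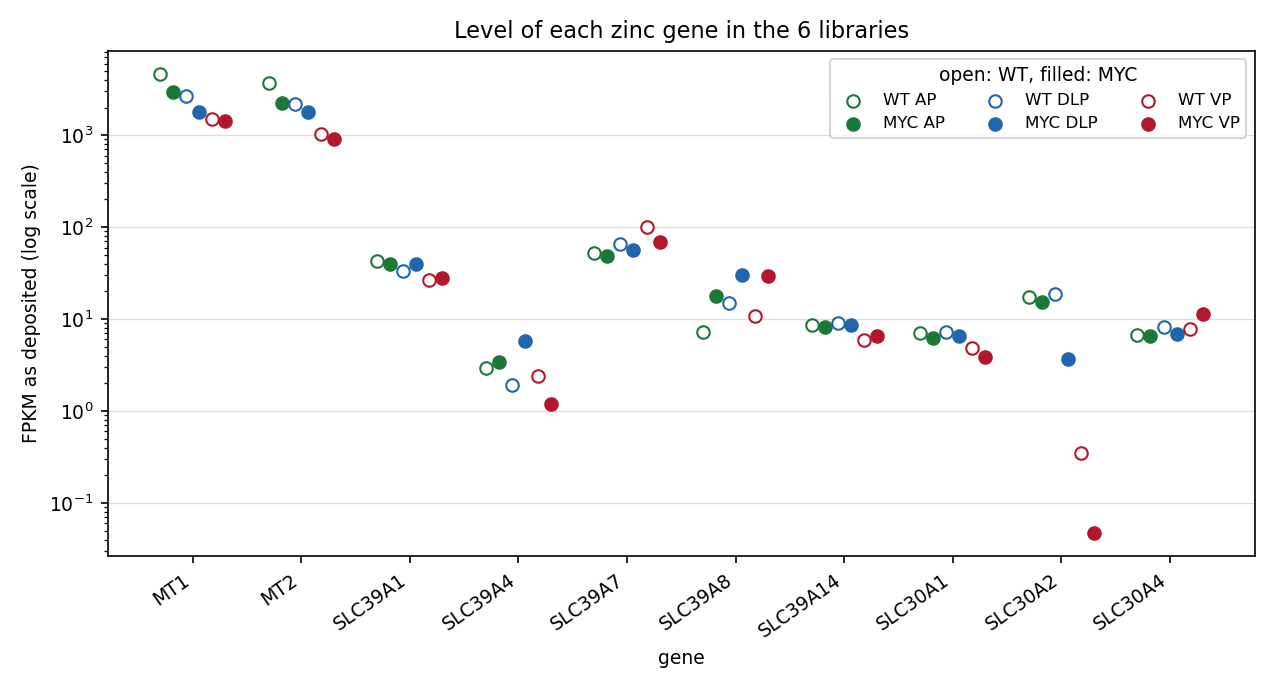
Level of each zinc gene in each of the 6 libraries, in FPKM on a log axis, with open circles for WT, filled circles for MYC, and green, blue and red for AP, DLP and VP. MT1 and MT2 sit between 908 and 4662 FPKM, while SLC30A2 spans 0.0470 to 18.5 FPKM, with both VP libraries at the bottom.

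A difference is counted below where the ratio of (FPKM + 1) was at least 2-fold in either direction. Between WT VP and WT DLP, 8.92% of all genes compared differed that far, and 2 of the 10 zinc genes did, MT2 and SLC30A2, both lower in VP. MT2 was 2.14-fold lower in WT VP than in WT DLP (interval 2.11 to 2.18) and MT1 1.75-fold lower, below the threshold. The MT2 difference was just past the threshold, at -1.10 on the log2 scale, and with libraries scaled by size factors it was -0.94 and no longer counted. Between WT VP and WT AP, 18.2% of all genes differed that far and 3 of the 10 did, MT1, MT2 and SLC30A2, again all lower in VP. MT1 was 3.09-fold lower (interval 3.05 to 3.14) and MT2 3.55-fold lower (3.48 to 3.61) in WT VP than in WT AP. Between WT DLP and WT AP the background was 5.16% and none of the 10 was counted as different. MT1 was 1.77-fold and MT2 1.65-fold lower in WT DLP. With libraries scaled to equal sums the MT1 value moved from -0.82 to -1.03 on the log2 scale.

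The same order was present among the MYC libraries, with a smaller range between AP and VP for both genes. Between MYC VP and MYC AP, where 25.1% of all genes differed at least 2-fold, MT1 was 2.04-fold and MT2 2.46-fold lower in VP, and SLC39A4 and SLC30A2 were also lower. MT1, at -1.02 on the log2 scale, and SLC39A4, at -1.01, were just past the threshold. Between MYC VP and MYC DLP, with a background of 17.6%, SLC39A4 and SLC30A2 were counted as lower, while MT2 was 1.96-fold lower and MT1 1.23-fold lower. Between MYC DLP and MYC AP, with a background of 8.03%, SLC30A2 was the only one of the 10 counted, and it was lower in DLP.

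Both animals together allow a test between lobes, with 2 libraries per lobe and the animal as a block. These animals differ in genotype, so the spread it uses includes any difference in the MYC effect between lobes. Between VP and AP, limma called 16.6% of all genes and 2 of the 10 zinc genes. MT2 was lower in VP, at -1.56 on the log2 scale (limma adjusted p = 0.047, lower in 2 of 2 animals), and SLC30A2 at -3.86 (limma adjusted p = 0.021, lower in 2 of 2 animals). For MT1 the difference was -1.33 with a limma adjusted p of 0.074, which did not pass. Between VP and DLP, where limma called 0.89% of all genes, 0 of the 10 passed. An unadjusted limma p under 0.05 was found for 4 of the 10, and for 3031 of the 12361 genes compared. The largest difference among the 4 was that of SLC30A2, at -3.01 with a limma adjusted p of 0.069. Between DLP and AP, where limma called 0.0485% of all genes, 0 of the 10 passed. An unadjusted limma p under 0.05 was found for 1 of the 10, SLC39A8, and for 1332 of the 12361 genes compared.

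In WT, other readouts moved along the same lobe order as the metallothioneins, and their part in it was not tested. The 4 endothelial markers PECAM1, CDH5, KDR and EMCN summed to 136 FPKM in WT AP, 104 in WT DLP and 22.3 in WT VP, and 4 of the 4 were at least 2-fold lower in WT VP than in either other lobe. The 4 basal markers summed to 1337, 918 and 407 FPKM, and 3 of 4 were at least 2-fold lower in WT VP than in WT AP. The 6 hematopoietic markers summed to 102, 39.4 and 28.4 FPKM, with 5 of 6 at least 2-fold lower in WT VP than in WT AP. The 3 luminal markers ran the other way, with 993 FPKM in WT AP, 1079 in WT DLP and 3077 in WT VP. Among 8 acute phase genes, which respond to interleukin-6, 3 passed the level filter, and all 3 were at least 2-fold lower in WT VP than in both other WT lobes. They were IL6 itself, SOCS3, a feedback inhibitor of cytokine signalling, and LCN2, an iron-binding acute phase protein. Their list summed to 783 FPKM in WT AP, 502 in WT DLP and 187 in WT VP. Of 7 genes induced by glucocorticoids, none was at least 2-fold lower and 2 were at least 2-fold higher in WT VP than in WT AP, while their sum, led by ERRFI1, was 1155 FPKM in WT AP, 873 in WT DLP and 866 in WT VP. Among the MYC libraries only some of these lists kept the order in their sums. The endothelial markers summed to 148 FPKM in AP, 114 in DLP and 24.0 in VP, and the glucocorticoid-induced genes to 1175, 900.2 and 541. Of the latter, only ERRFI1, at 776, 556 and 252 FPKM, and PER1, at 67.2, 42.3 and 34.5, kept the order. FKBP5 was highest in MYC VP, at 38.0, 32.2 and 44.6 FPKM. The basal markers, at 859, 1286 and 278 FPKM, and the hematopoietic markers, at 91.1, 224 and 165, were highest in MYC DLP. The acute phase genes summed to 488, 493 and 118 FPKM, and their members differed: SOCS3 kept the order at 287, 175 and 46.2 FPKM, as did IL6 at 114, 107 and 32.1, while LCN2 was highest in MYC DLP at 86.4, 204 and 37.0.

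**Figure D2:**
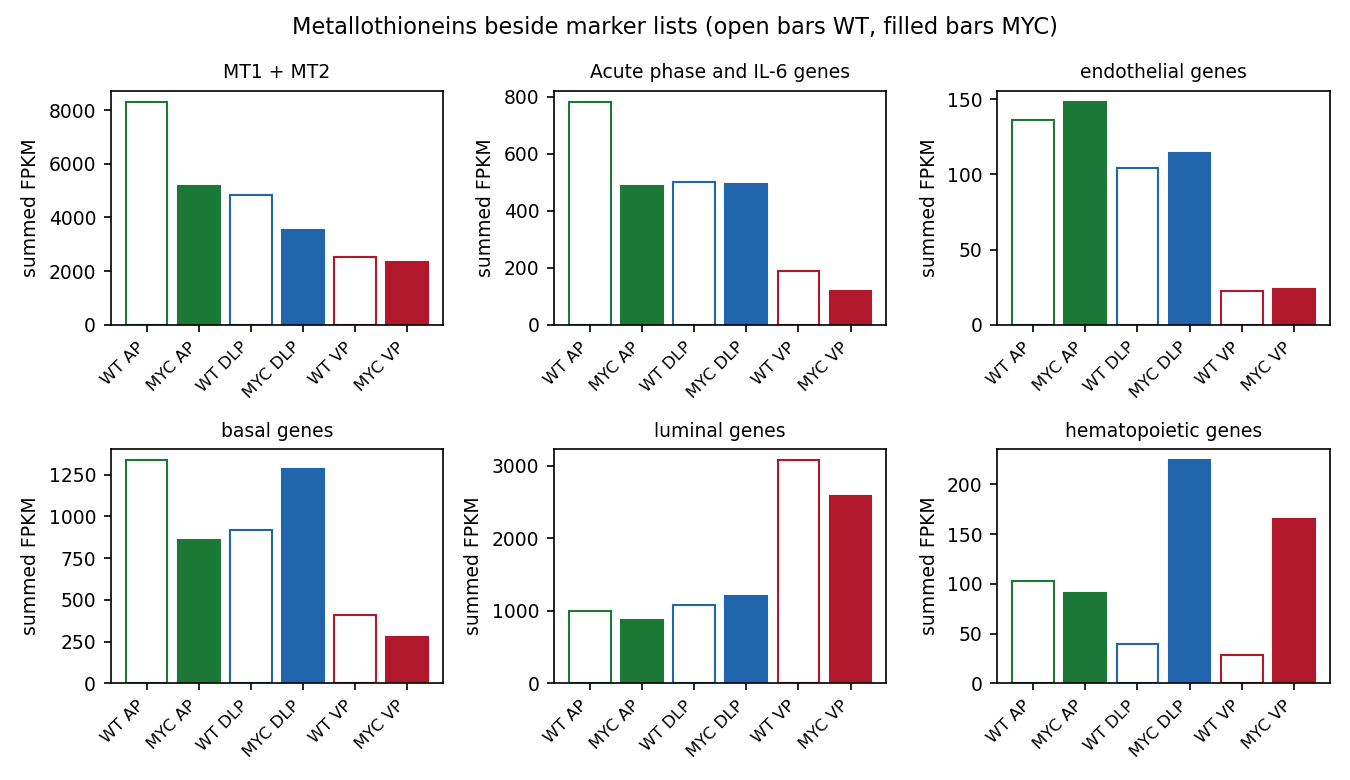
Summed FPKM of MT1 and MT2 beside that of 5 gene lists, in the 6 libraries, with open bars for WT and filled bars for MYC. MT1 and MT2, the acute phase genes and the endothelial genes are lowest in both VP libraries, the luminal genes are highest there, and the hematopoietic genes are highest in MYC DLP and MYC VP.

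Between MYC and WT, both metallothioneins were lower in MYC in all 3 lobes, by less than 2-fold each time. For MT1 the log2 ratio stood at -0.67 in AP, -0.58 in DLP and -0.06 in VP, and that of MT2 was -0.71, -0.31 and -0.18. In AP this was 1.59-fold for MT1 (interval 1.57 to 1.61) and 1.64-fold for MT2 (1.62 to 1.66), and 1.91% of all genes were lower by as much as MT2 or more. The differences in VP were small, and when libraries were scaled by KRT8 and KRT18 they became 0.20 for MT1 and 0.08 for MT2, while both genes stayed lower in AP and DLP under each of the 4 scalings. In AP the acute phase genes summed to 783 FPKM in WT and 488 in MYC and the endothelial markers to 136 and 148. The basal markers summed to 1337 and 859, but their members did not go together: KRT14 was at 760.5 FPKM in WT and 333 in MYC, KRT5 at 109 in both, and TRP63 at 5.79 in WT and 19.2 in MYC. The seminal vesicle genes summed to 0.112 in WT and 522 in MYC. The part of these values in the AP difference was not tested. Of the glucocorticoid-induced genes, 3 of 7 were at least 2-fold higher in MYC AP, among them FKBP5 at 11.1 FPKM in WT and 38.0 in MYC, and none was at least 2-fold lower.

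Of the other metallothioneins, MT3, best known from brain, was at 20.3 FPKM in WT and 18.8 in MYC AP, 5.43 in WT and 2.17 in MYC DLP, and 2.004 in WT and 3.52 in MYC VP. AP was again the highest lobe in both genotypes. MT3 was lower in MYC DLP than in WT DLP, at -1.02 on the log2 scale, just past the threshold and at low levels. Its log2 ratio was -0.11 in AP and 0.59 in VP, and no counting interval is given for it. MT4 had a mean under 1 FPKM and was not compared. The metal sensor MTF1 ranged from -0.10 to 0.16 on the log2 scale between MYC and WT over the lobes.

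Among the importers, SLC39A8 stood higher in MYC in all 3 lobes. SLC39A8 carries zinc, manganese and cadmium across the plasma membrane, and is encoded at chr3:135816882-135888572. Its level was 7.20 FPKM in WT and 17.8 in MYC AP, 15.1 in WT and 30.4 in MYC DLP, and 10.7 in WT and 29.4 in MYC VP. As deposited, the 3 MYC libraries, from 17.8 to 30.4 FPKM, did not overlap the 3 WT libraries, from 7.20 to 15.1 FPKM. The same separation held for 10.7% of all genes compared and for 1 of the 10, and the 3 libraries of a genotype are lobes of 1 animal, not replicates. The nearest pair across genotypes, MYC AP and WT DLP, was 1.18-fold apart (interval 1.12 to 1.25). Scaling by KRT8 and KRT18 divides MYC VP by 1.57 and WT DLP by 0.633, which puts MYC VP below WT DLP. SLC39A8 was 2.75-fold higher in MYC in VP (interval 2.60 to 2.92), 2.02-fold in DLP (1.91 to 2.13) and 2.47-fold in AP (2.26 to 2.71). On the scale of FPKM + 1 the log2 ratios were 1.38, 0.97 and 1.20, so that DLP lay just under the threshold. With a pseudocount of 0.1 in place of 1 the DLP value was 1.01. With the pseudocount kept at 1, each scaling put DLP further below the threshold. Size factors gave 0.92 and equal sums 0.91. Equal sums without the 20 highest genes gave 0.81, and scaling by KRT8 and KRT18 gave 0.76.

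In AP, where 2.65% of all genes differed at least 2-fold and 2.05% were higher in MYC, SLC39A8 was the only one of the 10 counted. At least as large a ratio in that direction was found for 1.44% of all genes in AP, 6.70% in DLP and 3.24% in VP. The most similar expression profiles over the 6 libraries, by the root mean square difference of centred log2 levels among 5359 genes averaging 10 FPKM or more, were those of PRDX4 (0.18), PSMA5 (0.23) and GRN (0.24). PRDX4 is a peroxiredoxin of the endoplasmic reticulum, PSMA5 a proteasome subunit and GRN the precursor of granulins.

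Hematopoietic markers moved with SLC39A8 in the DLP and VP but not in AP. The 6 markers summed to 39.4 FPKM in WT DLP and 224 in MYC DLP, and to 28.4 in WT VP and 165 in MYC VP. Of these 6, which all passed the level filter, 6 were at least 2-fold higher in MYC in DLP and 5 in VP. LYZ2, the lysozyme of macrophages and neutrophils, was at 11.8 and 132 FPKM in DLP and at 7.82 and 109 in VP. In AP the markers summed to 102 FPKM in WT and 91.1 in MYC, with 0 of 6 at least 2-fold different, while SLC39A8 was 2.47-fold higher in MYC. Other markers did differ in AP. The luminal progenitor markers KRT4 (1.48 on the log2 scale), PSCA (1.28) and LY6D (1.19) were at least 2-fold higher in MYC AP. These 3, which are not the whole list, summed to 121 FPKM in WT and 299.8 in MYC AP, to 222 and 528 in DLP and to 153 and 109 in VP. In VP they went opposite ways, with KRT4 at 53.3 FPKM in WT and 7.09 in MYC (-2.75 on the log2 scale) and LY6D at 7.23 and 35.3 (2.14). Of the 5 fibroblast markers, COL1A1 (2.04) and COL1A2 (1.41) were at least 2-fold higher in MYC AP, and the 4 smooth muscle markers summed to 67.3 FPKM in WT and 114 in MYC. The seminal vesicle genes, at 522 FPKM, also set MYC AP apart. In VP the fibroblast markers summed to 634 FPKM in WT and 185 in MYC, with 3 of 5 at least 2-fold lower, and the smooth muscle markers to 104 and 47.6. The part of these markers in the SLC39A8 values was not tested. A low-level gene that overlaps SLC39A8, 4933401H06Rik, was at most 0.0393 FPKM.

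SLC39A4 differed between MYC and WT in opposite directions in DLP and VP. This importer takes up dietary zinc in the intestine, and its loss causes the zinc deficiency acrodermatitis enteropathica. SLC39A4 (chr15:76612383-76618506) was at 2.94 FPKM in WT and 3.38 in MYC AP, 1.94 in WT and 5.78 in MYC DLP, and 2.43 in WT and 1.18 in MYC VP. WT libraries lay close together, while MYC DLP was the highest and MYC VP the lowest of all 6. The levels were low, and rested on about 100 estimated reads in MYC VP and 415 in MYC DLP. In DLP it was 2.98-fold higher in MYC (interval 2.50 to 3.56), and at 1.20 on the log2 scale it was the only one of the 10 counted as higher there. In VP it was 2.06-fold lower (interval 1.63 to 2.63), which on the scale of FPKM + 1 was -0.65 and was not counted.

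SLC39A7 was the most abundant of the 8 transporters in every library, and as deposited it was highest in VP. It releases zinc from the endoplasmic reticulum and Golgi into the cytosol. SLC39A7 (chr17:34028266-34031690) was at 51.8 FPKM in WT and 48.1 in MYC AP, 65.4 in WT and 56.5 in MYC DLP, and 100.5 in WT and 69.0 in MYC VP. As deposited, VP was the highest lobe and AP the lowest within each genotype, and MYC was below WT within each lobe. The luminal markers were also highest in VP, at 3077 FPKM in WT VP against 993 in WT AP and 1079 in WT DLP, and their part in the lobe order was not tested. Scaled by KRT8 and KRT18, SLC39A7 was lowest in VP in both genotypes: the log2 ratio of VP to DLP went from 0.61 to -0.95 in WT and from 0.28 to -0.78 in MYC, and that of VP to AP from 0.94 to -0.65 in WT and from 0.51 to -0.99 in MYC. The difference between MYC and WT was 1.46-fold in VP (interval 1.40 to 1.51), or -0.53 on the log2 scale, -0.21 in DLP and -0.10 in AP, the last of which became 0.08 when libraries were scaled by KRT8 and KRT18. It made up 68.7% of the summed FPKM of the 5 importers in VP of WT and 51.5% in VP of MYC. Among the nearest profiles were those of GAB1 (0.07) and CDK19 (0.08).

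The other 2 importers varied little. SLC39A1, a widely expressed importer of the plasma membrane (chr3:90248190-90253613), was at 42.3 FPKM in WT and 39.5 in MYC AP, 33.0 in WT and 39.6 in MYC DLP, and 26.8 in WT and 27.9 in MYC VP. Both VP libraries were the lowest, and their ratio of 1.04 (interval 0.987 to 1.10) was within counting error. SLC39A14, which also carries iron and manganese (chr14:70303467-70351452), lay between 5.86 FPKM in WT VP and 9.13 in WT DLP. Its intervals between MYC and WT included no difference in all 3 lobes.

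On the exporting side, SLC30A2 differed most, both between lobes and in the DLP between genotypes. SLC30A2 loads zinc into secretory vesicles, and its loss leaves milk poor in zinc. SLC30A2 (chr4:134343046-134354484) was at 17.4 FPKM in WT and 15.2 in MYC AP, 18.5 in WT and 3.68 in MYC DLP, and 0.353 in WT and 0.0470 in MYC VP. AP of both genotypes and WT DLP were highest, MYC DLP lay 4.14-fold below MYC AP (interval 3.64 to 4.71), WT VP 10.4-fold below MYC DLP (7.45 to 15.1), and MYC VP was lowest. WT DLP and WT AP differed by 1.07-fold (interval 0.988 to 1.16), within counting error.

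In WT VP it was 52.5-fold lower than in WT DLP (interval 38.3 to 74.8) and 49.1-fold lower than in WT AP (35.7 to 70.2). Only 31 of 12361 genes were as much lower in VP than in DLP on the scale of FPKM + 1. In MYC DLP it was 5.04-fold lower than in WT DLP (interval 4.43 to 5.72), on about 279 and 1905 estimated reads, or -2.06 on the log2 scale. At least as large a ratio in that direction was found for 73 genes, 0.591% of those compared. In VP it was 7.52-fold lower in MYC (interval 2.83 to 30.4), but on about 4 and 38 estimated reads. On the scale of FPKM + 1 that VP value was -0.37 and was not counted, and with a pseudocount of 0.1 it was -1.62. In AP the ratio was 1.14-fold lower.

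Between MYC DLP and WT DLP, cell type markers also differed, and their part in the SLC30A2 value was not tested. The 3 luminal markers summed to 1079 FPKM in WT and 1207 in MYC, with HOXB13 at 107 and 64.8. The 4 basal markers summed to 918 and 1286 FPKM, with KRT5 (1.09 on the log2 scale) and TRP63 (1.59) at least 2-fold higher in MYC. The same 3 luminal progenitor markers summed to 222 and 528 FPKM, with KRT4 (1.14) and LY6D (3.21) at least 2-fold higher. The 5 fibroblast markers summed to 1262 and 604 FPKM, mostly through DCN, at 1155 and 454, while 2 of 5 were at least 2-fold lower and COL1A1 was higher, at 10.6 and 44.8. The 4 smooth muscle markers summed to 138 and 58.4 FPKM, and the hematopoietic markers to 39.4 and 224. None of the smooth muscle markers was at least 2-fold higher in MYC, and 3 of 4 were at least 2-fold lower, with ACTG2 at -0.92 on the log2 scale. Of the 3 adipocyte markers, FABP4, which endothelial cells also express, was at 64.0 FPKM in WT DLP and 64.8 in MYC DLP, PLIN1 was at 0 in every library and ADIPOQ was at most 0.0583 FPKM.

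SLC30A4 and SLC30A1 differed less. SLC30A4, whose loss in the lethal milk mouse also leaves milk poor in zinc (chr2:122681233-122702663), was at 6.67 FPKM in WT and 6.55 in MYC AP, 8.15 in WT and 6.95 in MYC DLP, and 7.79 in WT and 11.5 in MYC VP. As deposited, only MYC VP stood off from the other libraries, 1.47-fold above WT VP (interval 1.38 to 1.57), while in DLP SLC30A4 was 1.17-fold lower in MYC (1.08 to 1.27). Scaled by KRT8 and KRT18, MYC VP was below the other MYC lobes for SLC30A4. Its log2 ratio went from 0.65 to -0.32 against MYC DLP and from 0.73 to -0.65 against MYC AP. SLC30A1, the plasma membrane exporter, is like the metallothioneins a target of MTF1 (chr1:191906697-191913248). It was at 7.13 FPKM in WT and 6.20 in MYC AP, 7.31 in WT and 6.50 in MYC DLP, and 4.85 in WT and 3.88 in MYC VP. As with MT1 and MT2, and also with SLC30A2, both VP libraries were the lowest and each MYC library was below its WT counterpart. The log2 ratios of MYC to WT for SLC30A1 were -0.18 (AP), -0.15 (DLP) and -0.26 (VP). Scaled by KRT8 and KRT18 they were -0.02, -0.37 and -0.04.

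**Figure D3:**
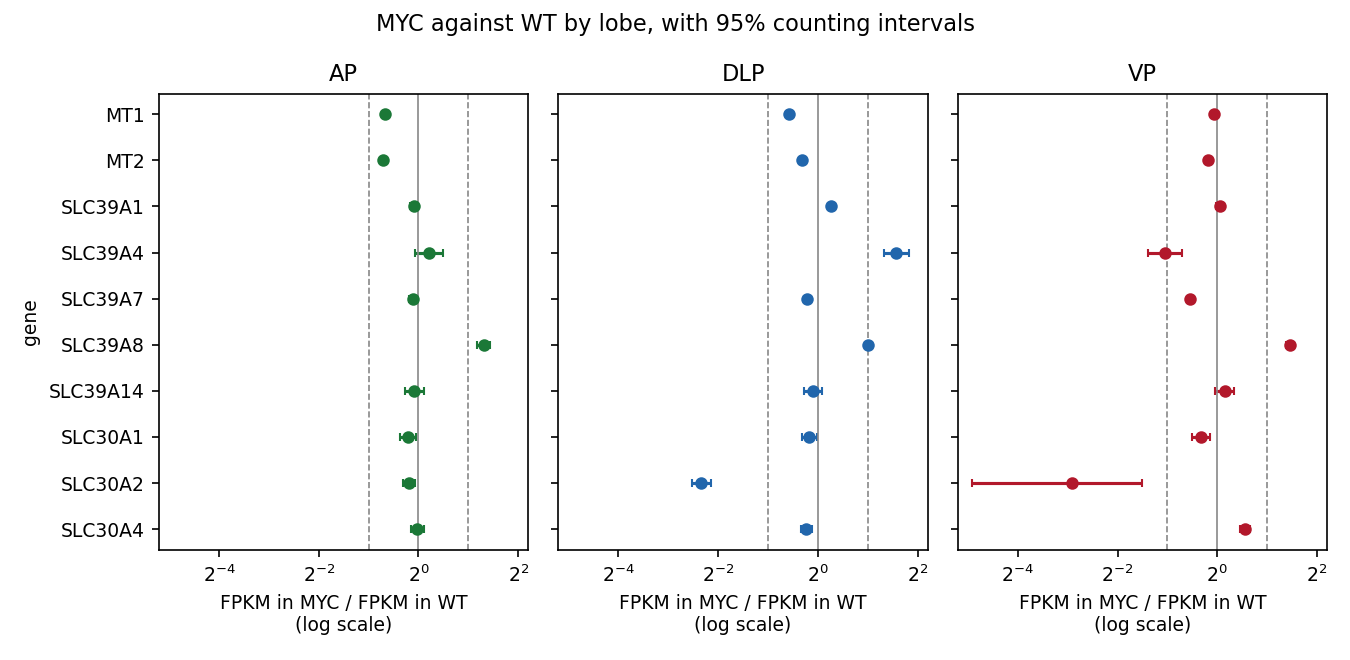
Ratio of FPKM in MYC to FPKM in WT for each zinc gene in AP, DLP and VP, on a log axis, with exact 95% counting intervals as bars and dashed lines at 2-fold. SLC39A8 lies to the right in all 3 lobes, SLC30A2 far to the left in DLP and, with a wide interval from few reads, in VP, and SLC39A4 on opposite sides in DLP and VP.

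Counted over the 10 genes, the MYC libraries showed few 2-fold differences. In VP, where 12.8% of all genes differed at least 2-fold (6.88% higher and 5.95% lower in MYC), 1 of the 10 was higher, SLC39A8, and 0 were lower. In DLP, where the background was 9.85% (6.46% higher and 3.39% lower), 1 was higher, SLC39A4, and 1 was lower, SLC30A2. In AP the background for lower genes was 0.599%, and 0 of the 10 were lower beside the 1 higher. With 10 genes these counts are near the background shares. The median log2 ratio of the 10 was -0.12 in VP, -0.18 in DLP and -0.10 in AP, beside medians of all genes of 0.04, 0.03 and 0.13. MT1, MT2, SLC39A7, SLC30A1 and SLC30A2 were lower in MYC in all 3 lobes, and SLC39A8 was higher in all 3; scaling by KRT8 and KRT18 turned the direction for MT1 and MT2 in VP and for SLC39A7 in AP.

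Summed over the 8 transporters among the 10, the ratio of importers to SLC30 genes was higher in MYC than in WT DLP. The 5 importers summed to 125 FPKM in WT DLP and 141 in MYC DLP, and the 3 SLC30 genes to 34.0 and 17.1, so that their ratio was 3.66 in WT and 8.22 in MYC. Most of the lower SLC30 sum was SLC30A2, at 18.5 and 3.68 FPKM, since the other two summed to 15.5 and 13.5. In AP the ratio was 3.63 in WT and 4.18 in MYC, and in VP it was 11.2 and 8.70. In WT VP the importer sum was also the highest of the 6 libraries, at 146 FPKM, of which SLC39A7 made up 100.5, while the SLC30 sum was the lowest, at 13.0. Over every measured member of both families, 14 SLC39 and 10 SLC30 genes, the gap was smaller, with a ratio of 2.21 in WT and 3.22 in MYC DLP, 2.34 and 2.41 in AP, and 3.89 and 3.25 in VP.

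On the scale of FPKM + 1, the rest of both transporter families gave no 2-fold difference between MYC and WT in any lobe. Of 9 other ZIP importers, 6 passed the level filter, and 0 of 6 were counted in VP, DLP or AP. Of 7 other ZnT genes, 5 passed, and 0 of 5 were counted. Between WT lobes, SLC39A11, a zinc importer of the Golgi and nucleus, was at 2.39 FPKM in AP, 5.99 in DLP and 12.9 in VP. As deposited this was the reverse of the metallothionein order. Scaling by KRT8 and KRT18 divides WT DLP by 0.633 and WT VP by 1.89, which puts VP below DLP for SLC39A11. SLC30A10, which mainly exports manganese, was at 0.0556 FPKM in WT and 0.726 in MYC AP, 4.57 in WT and 4.33 in MYC DLP, and 3.80 in WT and 2.01 in MYC VP. In AP that was 13.1-fold higher in MYC (interval 6.48 to 30.5), on about 8 and 205 estimated reads, and 0.71 on the log2 scale of FPKM + 1. With a pseudocount of 0.1 it was 2.41, and scaled by KRT8 and KRT18 it was 1.10, so that under either setting it was counted as higher.

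**Figure D4:**
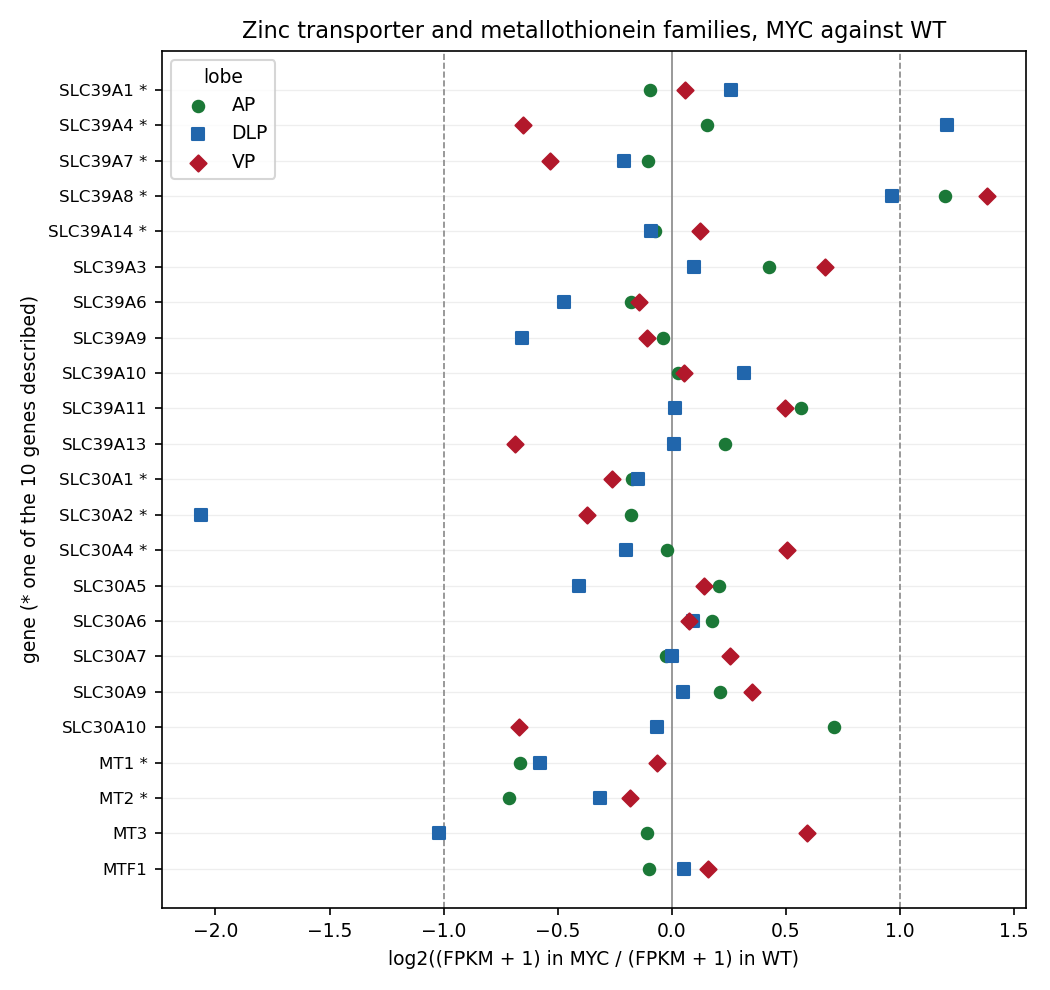
Log2 ratio of FPKM + 1 between MYC and WT in AP (circles), DLP (squares) and VP (diamonds) for the compared members of the SLC39, SLC30 and metallothionein families and MTF1, with dashed lines at 2-fold and stars on the 10 genes described. Values past the lines are SLC39A4 and SLC39A8 to the right and SLC30A2 and, at -1.02 in DLP, MT3 to the left.

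Genes of neighbouring pathways also held some differences of that size between MYC and WT, beside the shares of all genes given above (12.8% in VP, 9.85% in DLP and 2.65% in AP). In AP, 3 of 7 glucocorticoid-induced genes were higher in MYC, FKBP5 (1.69), TSC22D3 (1.87) and ZBTB16 (1.09). Of 11 copper and iron genes compared, HMOX1, the heme-degrading enzyme, was lower in MYC in DLP (-1.71) and VP (-1.38), and SLC40A1, the iron exporter ferroportin, was higher in DLP (2.02). HMOX1 was also the only 1 of 7 NRF2 targets counted in any lobe. Of the acute phase genes compared, LCN2 was higher in MYC DLP (1.33) and SOCS3 lower in MYC VP (-1.36). ERRFI1 was lower in MYC VP (-1.12), the only glucocorticoid-induced gene counted there. Of 10 genes of the response to tissue dissociation, 0 were counted in any of the 3 lobes, with a median log2 ratio of -0.53 in VP, -0.01 in DLP and 0.19 in AP.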

How the data were processed

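The deposited table holds 1 FPKM value per gene and library. Per the labels, the authors sequenced single-end 75-base reads from stranded polyA libraries, and the submitters' processing notes name bcl2fastq 2.18, STAR, Cufflinks and mm10 (the same build as GRCm38). The annotation is not given in the sources used here. The study's methods describe read counts and a count model, but the values are not whole and are FPKM, so no count test was run. All 6 columns of samples were used and 0 were left out.

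Here, ratios were log2 of (FPKM + 1) over genes averaging 1 FPKM or more, and a difference was counted at 2-fold. With 1 library per group, no difference between MYC and WT was tested. Lobes were tested over both animals with limma 3.58.1 (R 4.3.3) on log2 (FPKM + 1) with lobe and animal as terms, which leaves 2 residual degrees of freedom, and p-values were adjusted by Benjamini-Hochberg over all genes compared. This model was chosen after seeing the data. The labels give the 3 lobes of a genotype 1 animal number, which is the pairing. Depth was found as the number of reads that makes low values (under 0.3 FPKM) of single-exon, single-transcript genes over 600 bases nearest whole, with GENCODE M1 lengths less 200 bases. A depth was divided by 2 where the smaller one scored at least 0.75 of the best, a rule added after a first search gave some depths doubled. The estimated reads gave exact (Clopper-Pearson) 95% intervals. Lengths were found for 90.0% of compared genes. The steps were tested on simulated data. Gene positions are from RefSeq (GRCm38.p6), which matched 10 of 10 symbols.

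The members and lists were chosen with earlier results of these data known. Named genes outside the 10 were those of the lists at least 2-fold different, markers that bear on a result, and the 3 nearest profiles of members averaging 10 FPKM or more and with a 2-fold range. Some genes of these lists and profiles are not reported here and were left out of the list sums. Alternatives were 4 scalings (size factors, equal sums, equal sums without the 20 highest genes, KRT8 and KRT18), a pseudocount of 0.1, no filter, a minimum mean of 10 FPKM and a 4-fold threshold. Python 3.11.15, pandas 2.3.3, numpy 2.4.6, scipy 1.17.1 and matplotlib 3.10.9 were used.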

Additional observations from a re-analysis of the deposited data

Results flagged for a closer look

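In 3 genes the difference between MYC and WT ran in opposite directions in 2 lobes, with both counting intervals leaving out no difference. With 1 library per group the difference between lobes itself was not tested. SLC39A4 was lower in MYC in VP and higher in DLP, and its log2 ratio in VP minus that in DLP was -1.86. SLC30A4 was higher in MYC in VP and lower in DLP, with 0.71 for VP minus DLP. SLC39A1 was higher in MYC in DLP and lower in AP, with 0.35 for DLP minus AP, a gap smaller than the 2-fold threshold; its AP ratio of -0.09 became 0.09 when libraries were scaled by KRT8 and KRT18.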

How the results depend on the processing

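With 1 library per group, none could be left out. The paired fit between lobes, with the animal as a replicate block, was chosen after seeing the data; it gave 0 zinc genes past an adjusted p of 0.05 (limma) between VP and DLP, 2 between VP and AP and 0 between DLP and AP. For MYC against WT no paired fit was made, since the lobes of 1 animal are not replicates of a genotype. Of 60 pairs of gene and comparison, over MYC against WT in each lobe and between the WT lobes, 9 were at least 2-fold different. Comparisons between MYC lobes are not among the 60. All 9 kept their direction under the 4 scalings and the pseudocount of 0.1, and 1 no longer passed the threshold, MT2 between WT VP and WT DLP under size factors. Of the 51 others, 15 passed the threshold under at least 1 of these 5 settings and 17 changed sign under at least 1. Most of the former came from scaling by KRT8 and KRT18, keratins that were themselves higher in VP. That scaling shifted the all-gene median between WT VP and WT DLP from -0.13 to -1.44, and between WT VP and WT AP from -0.01 to -1.33, and 8 of the 10 zinc genes were then counted in each. Size factors left 1 between WT VP and WT DLP. Equal sums and a pseudocount of 0.1 each gave 1 between WT DLP and WT AP in place of 0, and that pseudocount gave 2 in MYC against WT in VP. A minimum mean of 10 FPKM left 0 in MYC against WT in DLP and 1 between WT VP and WT DLP, because it drops SLC30A2 and SLC39A4. At 4-fold, 0 remained in MYC against WT in VP, 1 in DLP and 0 in AP, and 1 each between WT VP and WT DLP and between WT VP and WT AP. Among the other SLC30 genes, SLC30A10 was counted in MYC against WT in AP (1 in place of 0) with that pseudocount and with scaling by KRT8 and KRT18, settings added for these genes after seeing the data. Depth limits the VP values of SLC30A2.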
